A study of Rattus norvegicus with 3 samples.

Results

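The enzymes that place and remove methyl groups on lysine 4 of histone H3 were examined through the H3K4me2 peaks at their own genes in rat liver. The set held 10 genes, namely the methyltransferases Kmt2a, Kmt2b, Kmt2c, Kmt2d, Setd1a and Setd1b and the demethylases Kdm1a, Kdm1b, Kdm5a and Kdm5b. A peak belonged to the set when the gene field of the peak list, split at semicolons, held one of these symbols. By this rule 2 of the 7128 olanzapine peaks and 22 of the 19449 clozapine peaks were found, and they named 3 of the 10 genes, Kdm1a, Kdm5a and Kdm5b.

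The study profiled H3K4me2 in liver by chromatin immunoprecipitation with an antibody to dimethylated H3K4, followed by sequencing, with normal mouse IgG as the negative control of the precipitation. Female Sprague-Dawley rats (age not given) received olanzapine at 3 mg/kg or clozapine at 20 mg/kg by mouth 2 times a day for 9 weeks, or a sweet cookie pellet without drug as the vehicle, with 12 animals per group. All rats were fasting when the liver was taken, and the clozapine group alone was dosed by syringe after the rats refused the drug pellet, so that drug and route of dosing cannot be told apart. The sample titles name 1 rat per group for sequencing, and peak lists of the olanzapine library and of the clozapine library were analysed, while the vehicle library was not analysed here. No condition was replicated, and an effect of treatment cannot be told apart from a difference between animals or libraries. All values below therefore describe these 2 libraries without a test. By the read table of the study, the clozapine library had far fewer reads assigned to the genome than the olanzapine library. No count below was adjusted for this.

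In mammals, the KMT2 and SETD1 enzymes carry a SET domain and methylate H3K4 only weakly by themselves. They work in complexes built on the shared subunits WDR5, RBBP5, ASH2L and DPY30. KDM1A and KDM1B are flavin-dependent amine oxidases that remove the monomethyl and dimethyl states, whereas the KDM5 proteins are iron-dependent Jumonji enzymes that remove the trimethyl and dimethyl states. The dimethyl mark is usually found at active promoters, around the trimethyl mark at the start site, and at enhancers, so that the genes of these enzymes can themselves carry the mark that the enzymes place or remove.

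Promoter sequences of 4 of the genes are shown first, since the position of the peaks relative to the gene start is what the results below turn on. They are RefSeq sequences of assembly GRCr8, from 250 bases before to 50 bases after the transcription start, read 5′ to 3′ on the strand of the gene. The files use Rnor_6.0, so these coordinates cannot be set against the peak positions given below. Capitals mark the GC box motif GGGCGG, the letters CCAAT of the box named after them, the motif CCGGAAG of the ETS family, the YY1 core motif ATGGCGG or the E-box motif CACGTG on either strand. The windows are Kdm5a at chr4:155237874-155238173 (plus strand), Kdm1a at chr5:154121726-154122025 (minus strand), Kdm5b at chr13:48554147-48554446 (plus strand) and Setd1a at chr1:191818502-191818801 (plus strand).
Kdm5a: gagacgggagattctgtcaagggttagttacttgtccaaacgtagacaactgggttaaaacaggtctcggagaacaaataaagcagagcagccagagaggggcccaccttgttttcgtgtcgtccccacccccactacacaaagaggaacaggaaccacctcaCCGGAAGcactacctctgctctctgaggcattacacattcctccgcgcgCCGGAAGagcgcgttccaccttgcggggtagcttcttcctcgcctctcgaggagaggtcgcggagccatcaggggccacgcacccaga
Kdm1a: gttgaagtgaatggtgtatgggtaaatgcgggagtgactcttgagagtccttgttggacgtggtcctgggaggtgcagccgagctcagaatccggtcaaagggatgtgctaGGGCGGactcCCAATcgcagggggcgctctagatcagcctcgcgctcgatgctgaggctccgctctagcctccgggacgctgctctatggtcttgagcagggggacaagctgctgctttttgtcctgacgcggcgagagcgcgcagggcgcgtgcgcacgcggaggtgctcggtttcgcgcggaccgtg
Kdm5b: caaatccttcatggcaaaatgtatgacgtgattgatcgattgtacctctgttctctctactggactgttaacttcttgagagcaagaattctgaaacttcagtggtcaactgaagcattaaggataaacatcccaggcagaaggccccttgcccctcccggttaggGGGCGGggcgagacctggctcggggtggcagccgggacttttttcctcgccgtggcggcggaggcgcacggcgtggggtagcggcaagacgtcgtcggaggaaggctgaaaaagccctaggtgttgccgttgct
Setd1a: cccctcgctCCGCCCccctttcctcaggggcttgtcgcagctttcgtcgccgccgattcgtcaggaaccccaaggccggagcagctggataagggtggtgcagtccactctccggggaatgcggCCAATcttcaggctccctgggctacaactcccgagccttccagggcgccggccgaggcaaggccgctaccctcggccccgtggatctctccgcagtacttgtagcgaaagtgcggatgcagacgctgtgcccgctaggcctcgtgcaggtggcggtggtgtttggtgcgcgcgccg

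A promoter window was found for 8 of the 10 genes, without Kmt2a and Kmt2d. All 8 windows were rich in CpG, with an observed over expected ratio of at least 0.6, against 34.4% of the 33469 windows of the table. The ratio ran from 0.742 in Kdm5a to 0.992 in Setd1b, and the GC content from 55.7% in Kdm5b to 88.7% in Kmt2c, where the median window of the table had 51.7%. Kmt2c had 5 windows, of which the first listed was used, whereas the values over all windows include every entry. A GC box occurred in 7 of the 8 windows, and the one without was that of Kdm5a. The same letters occurred in 33.1% of all windows. The Kdm5a window instead held 2 matches to the ETS motif, which was present in 8.75% of all windows and in none of the other 7. A CCAAT box was found in Kdm1a and Setd1a (37.5% of all windows), the YY1 core in Kmt2b alone (4.80%) and the E-box in none (6.42%). These matches describe letters in a window, not bound sites.

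For each peak the authors deposited its class relative to genes, a fold enrichment (a ratio over a background that the sources used here leave unnamed) and a p-value and q-value on the −log10 scale. Genes with at least 1 peak in their upstream, 5′ UTR, exonic or splicing class were counted. On this count Kdm1a and Kdm5a stood in the olanzapine list (2 of 10 genes), and the share among 18539 protein-coding genes was 23%. The same 2 genes stood in the clozapine list, where the share of all genes was 14.6%. A share of 2 in 10 lies near both backgrounds. No gene of the set had a peak in the upstream or 5′ UTR class in either library, classes that held a peak for 7.31% (olanzapine) and 0.901% (clozapine) of all genes. This does not mean that no peak covered a gene start. The olanzapine peak of Kdm5a described below is classed as exonic but spans the implied start of the gene. With other limits on the peaks that name them, Kdm1a and Kdm5a were the olanzapine genes found in any class (36.2% of all genes), in any class but intergenic (27%) and among peaks longer than 200 bp (22.3%), Kdm1a alone at a fold enrichment of at least 5 (4.84%) and neither at a −log10 q of at least 5 (1.59%). In the clozapine list Kdm5b joined them in any class (3 of 10, against 52.9%) and in any class but intergenic (28.5%), both stayed among peaks longer than 200 bp (8.87%), and Kdm5a alone stayed at the fold limit (1.76%), at the q limit (2.02%) and in the 7128 peaks of highest −log10 p (3.65%). Among the 11695 protein-coding genes that either list named at all, 36.4% and 23.1% were counted in the olanzapine and clozapine lists, against 2 of the 3 named genes of the set in each. In whole liver, fewer cells of a type and less of the mark per cell cannot be told apart.

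**Figure D1:**
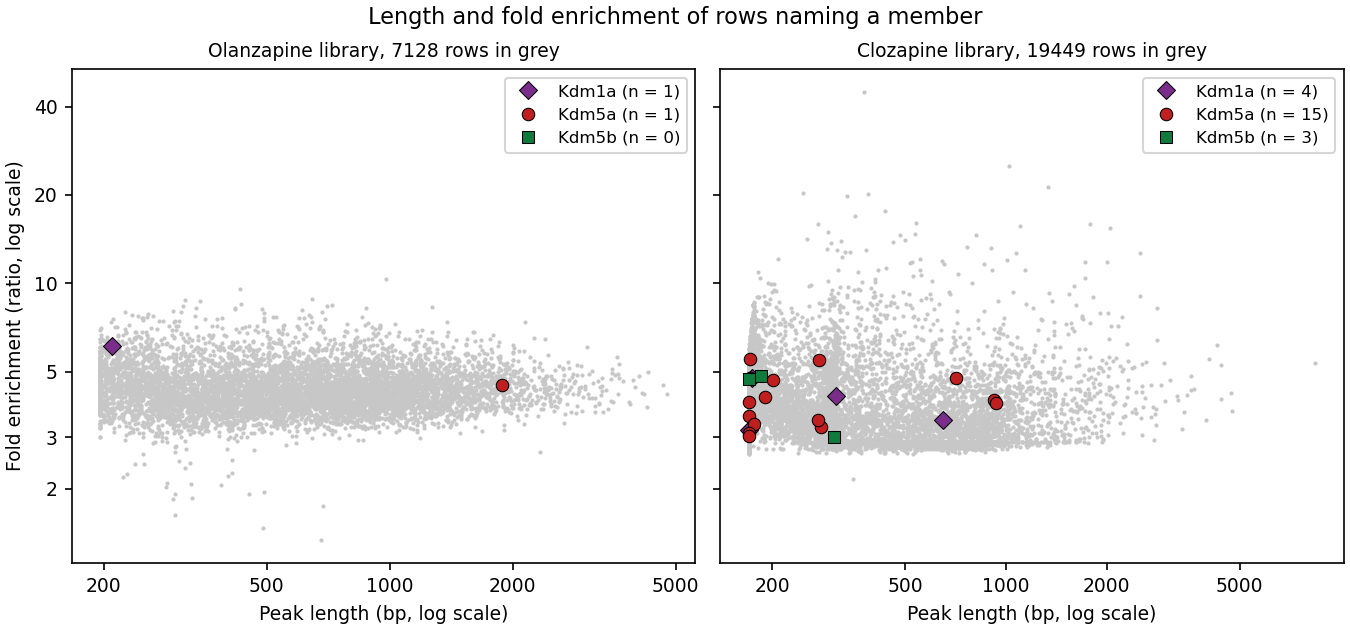
Each point is 1 peak, with its length in bp and its fold enrichment on log axes, for the olanzapine library (left) and the clozapine library (right), and peaks naming Kdm1a, Kdm5a or Kdm5b stand out in colour over all peaks in grey. The 2 olanzapine peaks are a short and a long one (209 and 1887 bp), while the 22 clozapine peaks run from 170 to 931 bp at fold enrichments between 3.00 and 5.55.

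Kdm1a encodes LSD1, the demethylase of the CoREST repressor complex. Its olanzapine peak was exonic, lay on chromosome 5 from 154964886 to 154965094 and was short, at 209 bp. Its fold enrichment of 6.14 ranked 297 of 7128 peaks, above 95.8% of the list, and its −log10 p of 8.27 ranked 637. It was thus among the more strongly enriched peaks of a list whose median fold enrichment was 4.30 (quartiles 3.88 and 4.84), yet it was much shorter than the median peak of 577 bp.

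In the clozapine library Kdm1a had 4 peaks, none of which met the olanzapine peak. The exonic peak from 154911449 to 154912098 was 650 bp long with a fold enrichment of 3.44, and the exonic peak from 154913035 to 154913204 was 170 bp long with 3.18. Both stood below the median of the clozapine list, 3.78 (quartiles 3.11 and 4.51). The intronic peak from 154917689 to 154917862 reached a fold enrichment of 4.79 and a −log10 p of 8.24, and the intronic peak from 154953696 to 154954005 reached 4.14 and 7.84. The intronic peaks were therefore the stronger pair by fold enrichment and by p. All 4 had lower coordinates than the olanzapine peak, the nearest by 10881 bp. The gene is on the minus strand in GRCr8, so the olanzapine peak was the one closest to the 5′ side of the gene.

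Many other genes looked like Kdm1a by these measures. Of 1073 genes with a peak of the counted classes in both libraries, 190 other genes also had 1 such olanzapine peak and 2 such clozapine peaks. By the distance in log2 fold enrichment of the peak with the highest −log10 p in each library, the nearest were Hm13 (distance 0.06 on the log2 scale), Mapk3 (0.06) and Fam193b (0.07). Hm13, which encodes signal peptide peptidase, had fold enrichments of 5.90 (olanzapine) and 3.18 (clozapine), against 6.14 and 3.18 for Kdm1a. For Mapk3, which encodes the kinase ERK1, the values were 5.90 and 3.14.

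Kdm5a encodes a Jumonji demethylase first described as a binding partner of the retinoblastoma protein, and it was the gene of the set with the largest number of peaks. Its single olanzapine peak sat on the gene start, whereas its clozapine peaks were spread along the body of the gene. The olanzapine peak ran from 152891409 to 152893295 on chromosome 4. The distance that the clozapine list gives for its intergenic peak places the start of Kdm5a at 152892388, so the olanzapine peak reached from 979 bp before to 907 bp after the start, although the list calls it exonic. It was 1887 bp long, rank 285 of 7128 by length, with a fold enrichment of 4.52 and a −log10 p of 5.82. By fold enrichment it ranked 2712, near the middle of the list, so it stood out by its length and not by its height.

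The clozapine list named Kdm5a in 15 peaks, of which 11 were exonic, 3 intronic and 1 intergenic. None of them covered the gene start. The intergenic peak ended 3983 bp before the start and had a fold enrichment of 3.96 over 170 bp. The intronic peaks began 4060, 25298 and 65197 bp after the start and had fold enrichments of 3.55, 4.77 and 5.55, each at a length near the shortest in the list (170, 172 and 172 bp). The exonic peaks began between 9100 and 74061 bp after the start and had fold enrichments from 3.03 to 5.49, with a median of 3.92, which was above the median of 3.40 over all 4087 exonic clozapine peaks.

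The exonic peaks of Kdm5a differed among themselves in both length and enrichment. The strongest by p, from 152941563 to 152941839, was 277 bp long and had a fold enrichment of 5.49 and a −log10 p of 11.0, rank 1271 of 19449. The longest were 931, 923 and 709 bp, and began 62525, 45626 and 74061 bp after the start. Their fold enrichments lay between 3.92 and 4.76. At the other end, peaks of 170 bp beginning 41336 and 47266 bp after the start had 3.09 and 3.03. The remaining 5 exonic peaks were 176 to 280 bp long and had fold enrichments of 3.24 to 4.68. Of the 11 exonic peaks, 7 were longer than 200 bp, a limit set because 8083 of the 19449 clozapine peaks were exactly 170 bp long. The distances between neighbouring exonic peaks ran from 717 to 20319 bp, with a median of 4068 bp. No exonic peak lay in the stretch between 9275 and 29595 bp after the start, which held 1 intronic peak.

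**Figure D2:**
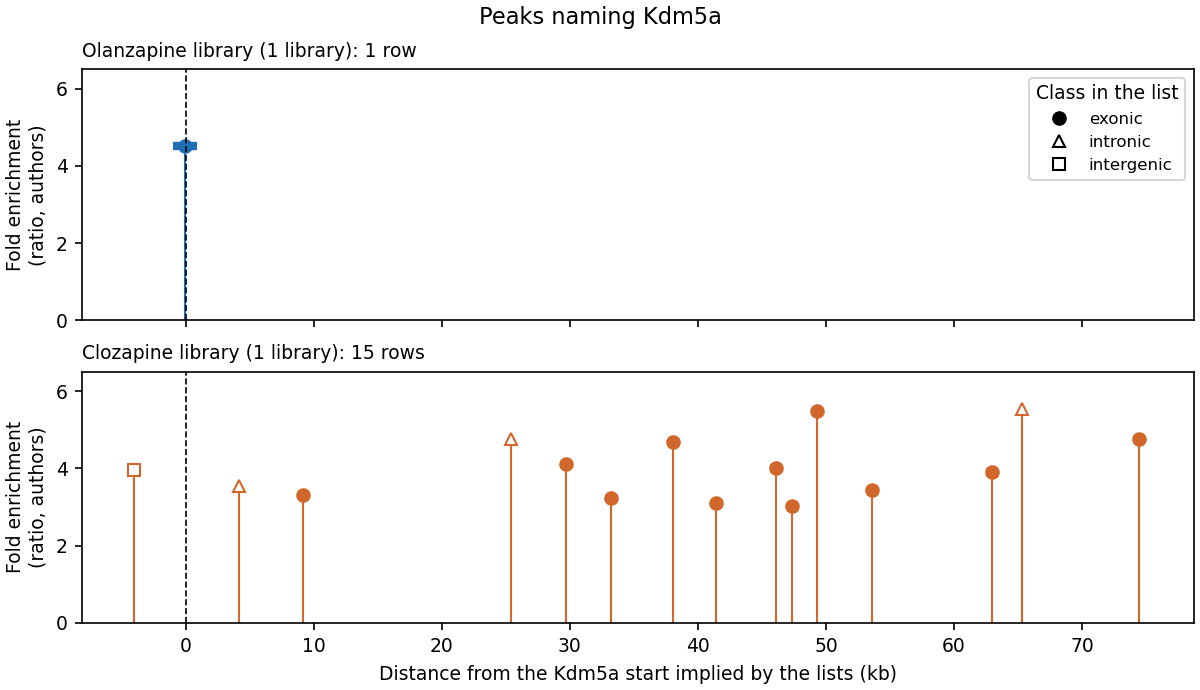
The height of each stem is the fold enrichment (ratio) of 1 peak naming Kdm5a and its place is the distance in kb from the start of the gene as the lists imply it, for the olanzapine library above and the clozapine library below, with the class of each peak given by its symbol and its length by a bar. The 1 olanzapine peak spans the start, and the 15 clozapine peaks leave the start free and reach 74769 bp into the gene.

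So many exonic peaks in 1 gene were rare in the clozapine list. Of 2592 genes with an exonic clozapine peak, 70.8% had just 1 and 313 had 3 or more. Only 5 genes had more than the 11 of Kdm5a, and 4 genes, Kdm5a included, had 11. Counting all peaks inside genes, Kdm5a had 14, and 2 of 5368 genes had more. From the implied start to the end of the last peak, a stretch of 74.77 kb, the clozapine list held 18.7 peaks per 100 kb, against 0.644 over chromosome 4, and the 100 kb on either side held 3 peaks together. The olanzapine list held 1 peak in the stretch and 0 on either side. The flanks were thus less dense in clozapine peaks than this stretch. The stretch was cut at the last peak naming Kdm5a, however, which by itself raises its density and leaves later bases to the flank. Of 1073 genes with a peak of the counted classes in both libraries, no other had exactly 1 olanzapine and 11 clozapine such peaks. The closest approach of the libraries at Kdm5a was 3004 bp, between the olanzapine peak and the intergenic clozapine peak.

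Kdm5b encodes the other KDM5 demethylase of the set. It was named in 3 clozapine peaks, all on chromosome 13, and in no olanzapine peak. The intronic peak from 51406415 to 51406720 began 22019 bp after the start implied by the list, was 306 bp long and had a fold enrichment of 3.00 with a −log10 q of 1.76. By q it ranked 18476 of 19449, near the bottom of the list. The other peaks, from 51332771 to 51332955 and from 51338297 to 51338467, were intergenic between Rabif and Kdm5b and had fold enrichments of 4.85 and 4.74. They ended 51441 and 45929 bp before the start of Kdm5b and lay nearer to Rabif (2239 and 7765 bp), so the rule counts them to a gene that is not their nearest. Kdm5b had no peak in the counted classes, and these 3 peaks are the only ones that name it.

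Seen as one group, the clozapine peaks of the 3 demethylase genes stood above the list as a whole in some measures and below it in others. Of the 22 peaks, 10 were longer than 200 bp (45.5%, against 35.8% of the list), 6 had a −log10 q of at least 5 (27.3% against 19.4%) and 2 had a fold enrichment of at least 5 (9.09% against 12.5%). The 13 exonic peaks had a median fold enrichment of 3.44 and a median length of 275 bp, against 3.40 and 239 bp over all exonic clozapine peaks. Since 15 of the 22 peaks are those of Kdm5a, these shares describe mostly that gene. No olanzapine peak of the set overlapped a clozapine peak by even 1 bp (0 of 2), and over the whole list 167 of 7128 olanzapine peaks did so (2.34%).

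The remaining 7 genes, the 6 methyltransferases and Kdm1b, were named in no peak of either list. For the methyltransferases this does not show that peaks were absent. In a names table of assembly GRCr8, genes with predicted transcripts alone were named in the lists in 25 of 4615 cases (0.542%), those with the latest curated transcripts in 11 of 583 (1.89%) and those with earlier curated transcripts in 11684 of 17956 (65.1%). Kmt2c and Setd1b are of the predicted kind, and Kmt2b, Kmt2d and Setd1a of the latest curated kind, the kinds that the lists seldom named. Kmt2a and Kdm1b are of the earlier curated kind. By the gene order of GRCr8, Kmt2a lies between Ttc36 and Atp5l. Both lists give Ttc36 and Atp5l as direct neighbours of intergenic peaks there, so they placed no gene between them. Whether the lists could have named Kdm1b is not known. The grouping was made after the lists had been seen.

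Intergenic peaks carry the names of the genes on both sides. The peaks between the nearest genes of any kind that either list names, on both sides of each methyltransferase, were therefore read as well, with the gene order taken from GRCr8. These peaks fall outside the rule and were looked up after the data had been seen. They can lie in the methyltransferase gene or beside it. For Kmt2b the neighbour on one side, Mir3569, lies inside the gene, so only part of Kmt2b was read. Across the 6 genes, the olanzapine list held 5 such peaks, 1 each for all but Kmt2b, and the clozapine list held 43, in all but Setd1a. For Kdm1b the nearest named genes were Dek and Kif13a, with Tpmt and Nhlrc1 also between them. No peak of either list named Kdm1b, Tpmt or Nhlrc1, and none was placed between Dek and Kif13a as intergenic.

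KMT2D is, with KMT2C, the main enzyme of H3K4 monomethylation at enhancers in mammals. The space between Prkag1 and Rhebl1 on chromosome 7, 45.795 kb that hold Kmt2d, had the densest run of clozapine peaks. It held 11 clozapine peaks, or 24.0 per 100 kb, which was the highest of the 4156 spaces of at least 20 kb that held a clozapine peak. The median over these spaces was 1.06 per 100 kb. The spaces were not chosen for holding a gene that the lists leave out, so this rank does not compare genes with genes. The same holds for the ranks of Kmt2c, Kmt2a and Kmt2b below. For the named gene Kdm5a the clozapine density was 18.7 per 100 kb, but over a stretch cut at its own last peak. It is therefore not measured in the same way as the density of a whole space. The 11 peaks were 170 to 2266 bp long, 10 of them longer than 200 bp, and had fold enrichments of 2.98 to 5.52 with a median of 3.54, below the median of the list. The olanzapine list had 1 peak there, from 140546552 to 140548239, which was 1688 bp long with a fold enrichment of 3.79 and lay 4480 bp from Rhebl1. All 11 clozapine peaks lay on the Prkag1 side of it, the nearest at 5002 bp.

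KMT2C, the closest relative of KMT2D, showed the strongest single clozapine peak near any gene of the set. The space between Cct8l1 and Galnt11 on chromosome 4 spans 234.615 kb and held 18 clozapine peaks, with fold enrichments of 2.90 to 12.3 and a median of 3.67. The strongest ran from 6208359 to 6208682, was 324 bp long and had a −log10 p of 28.8, rank 34 of 19449. A further peak from 6185368 to 6185733 had a fold enrichment of 7.20, one from 6215278 to 6215871 had 6.95 and one from 6218637 to 6218835 had 6.22. Of the 5 peaks above a fold enrichment of 5, these 4 lay in the middle of the space and the other, at 5.05, nearer to Galnt11. The olanzapine list had 1 peak there, from 6083735 to 6084621, which was 887 bp long with a fold enrichment of 3.58. It lay 21094 bp from Cct8l1, at the 5′ side of Kmt2c, and 17 of the 18 clozapine peaks lay beyond it in the direction of transcription. The density of clozapine peaks, 7.67 per 100 kb, was reached or passed by 57 of the 4156 spaces (1.37%).

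KMT2A is the MLL1 protein, best known for its fusions in human leukaemia. Between Ttc36 and Atp5l on chromosome 8, a space of 110.461 kb, the clozapine list held 11 peaks with fold enrichments of 2.90 to 4.83 and a median of 3.51. The longest peaks near any of the methyltransferase genes were found here, at 3567 bp (49152408 to 49155974) and 3483 bp (49125798 to 49129280), with fold enrichments of 4.83 and 4.17. Together the 11 peaks covered 9333 bp, and their density of 9.96 per 100 kb was reached or passed by 11 of the 4156 spaces (0.265%). The olanzapine list had 1 peak, from 49186552 to 49187381, 830 bp long with a fold enrichment of 3.96. Here 10 of the clozapine peaks lay on the Ttc36 side of the olanzapine peak and 1 on the Atp5l side, the nearest at 27892 bp.

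In the spaces read for Kmt2b, Setd1a and Setd1b, either list held at most 2 intergenic peaks. KMT2B is the closest relative of KMT2A, and SETD1A and SETD1B are the catalytic subunits of the complexes that place most H3K4 trimethylation in mammalian cells. The space read for Kmt2b, 20.588 kb between Igflr1 and Mir3569, ends inside the gene. Kmt2b is on the minus strand in GRCr8, so its 5′ part beyond Mir3569 was not read for intergenic peaks. In this space the clozapine list held 2 peaks, with fold enrichments of 2.84 and 4.27, and the olanzapine list none. In so short a space this came to 9.71 clozapine peaks per 100 kb, near the density at Kmt2a, and was reached or passed by 16 of the 4156 spaces (0.385%). Mir3569 is a microRNA gene that lies inside Kmt2b in GRCr8, and the olanzapine list named it in 1 peak of the exonic class for non-coding RNA. That peak ran from 89041861 to 89043046 on chromosome 1, was 1186 bp long and had a fold enrichment of 5.27. The clozapine list had no peak of that kind. Setd1a, between Orai3 and Hsd3b7 on chromosome 1, had 1 olanzapine peak and no clozapine peak. The olanzapine peak ran from 199223768 to 199224959, 1405 bp from Orai3, and was 1192 bp long with a fold enrichment of 3.77. Setd1b lies between Hpd and Tmem120b on chromosome 12, a space that also holds Rhof. It had 1 olanzapine peak of 1227 bp from 38872776 to 38874002 (fold enrichment 4.30) and 1 clozapine peak of 172 bp (fold enrichment 5.66), 16641 bp apart.

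**Figure D3:**
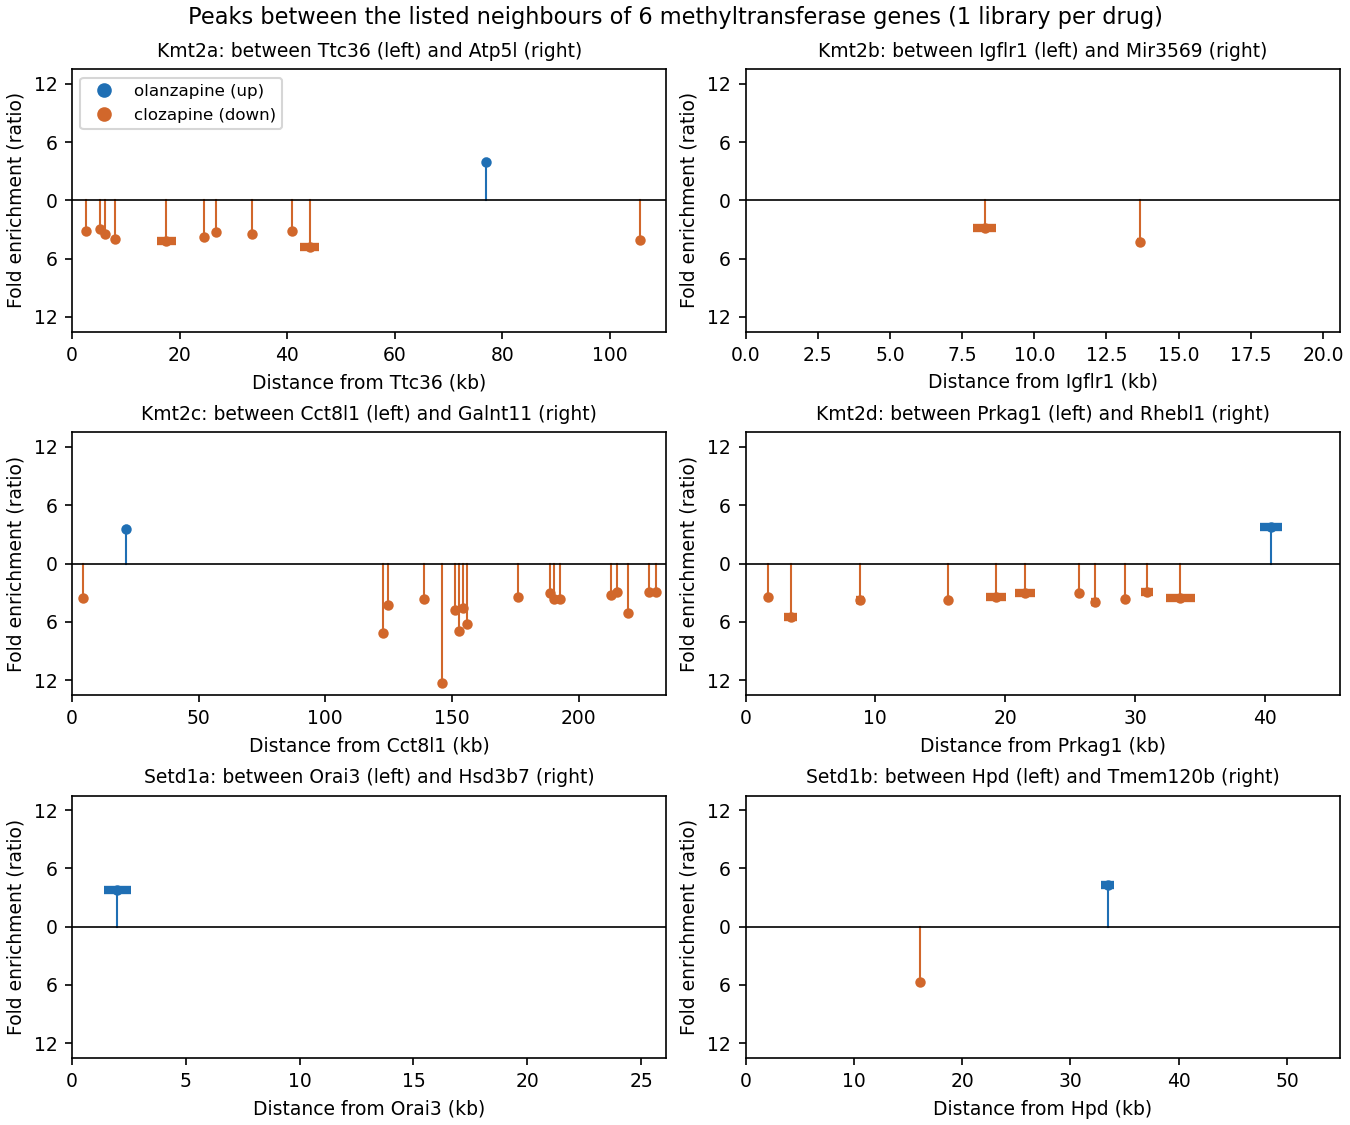
Each panel shows the space between the listed neighbours of 1 methyltransferase gene, with stems for the fold enrichment (ratio) of olanzapine peaks upward and of clozapine peaks downward, placed by distance in kb from the left neighbour, and bars for peak length. The clozapine list holds 11, 2, 18, 11, 0 and 1 peaks in the spaces of Kmt2a, Kmt2b, Kmt2c, Kmt2d, Setd1a and Setd1b. The olanzapine list holds no more than 1 in any panel. The space of Kmt2b ends inside that gene.

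Around Kmt2a, Kmt2c and Kmt2d there was thus 1 olanzapine peak and 11 or more clozapine peaks, around Setd1b 1 of each and around Setd1a an olanzapine peak alone. The part of Kmt2b that was read had clozapine peaks alone among the intergenic ones. The 5 olanzapine peaks were 830 to 1688 bp long, where the median of the 1805 intergenic olanzapine peaks was 500 bp and that of the exonic ones 707 bp, and their fold enrichments of 3.58 to 4.30 lay below or near the intergenic median of 4.32. Of the 43 clozapine peaks, 27 were longer than 200 bp (62.8%, against 31.4% of the 10159 intergenic clozapine peaks), and their median length was 274 bp against 171 bp. Against the exonic clozapine peaks, of which 56.3% were longer than 200 bp with a median of 239 bp, the difference was small. In no space did an olanzapine peak overlap a clozapine peak. Where a strand was at hand, for Kmt2c, Setd1a and Setd1b, the olanzapine peak lay nearer to the neighbour on the 5′ side in 3 of 3. This is nearness to a neighbouring gene and not to the start of the enzyme gene, and the Setd1b space also holds Rhof.

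A list of 61 further genes of the same pathway was described in the same way. Peaks of the counted classes stood at 23 of them in the olanzapine list (37.7%, against 23% of all genes) and at 11 in the clozapine list (18.0%, against 14.6%), with 7 genes in both lists. Upstream or 5′ UTR peaks were found at 11 of the genes with olanzapine and at none with clozapine, where these classes held a peak for 7.31% and 0.901% of all genes, so that the 0 lies near its background. The median fold enrichment of the counted olanzapine peaks was 4.02 (24 peaks, against 4.29 over 4270), and that of the clozapine peaks was 3.01 (14 peaks, against 3.41 over 4261), so the peaks of the list were not stronger than those of other genes.

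Among subunits of the methyltransferase complexes, 7 of 14 genes had a peak of the counted classes with olanzapine and 4 of 14 with clozapine. Over all genes the shares were 23% and 14.6%. Peaks of other classes, as at Wdr5 in both lists, are left out of these counts. Rbbp5, a core subunit shared by all 6 enzymes, had exonic peaks in both, of 980 bp with a fold enrichment of 4.18 and of 667 bp with 4.02. Men1, which encodes menin and tethers KMT2A and KMT2B to chromatin, had 198 bp at 3.89 and 170 bp at 2.64. Its clozapine peak lay near the floor of the exonic clozapine peaks, where the lowest fold enrichment was 2.63 and the shortest length 170 bp. Hcfc1, a cell-cycle cofactor of the SETD1 complexes, had a 5′ UTR olanzapine peak of 868 bp at 4.07 and an exonic clozapine peak of 356 bp at 3.45. Dpy30, another core subunit, and Cxxc1, the CpG-binding subunit of the SETD1 complexes, had a counted peak in the olanzapine list alone, each with 1 clozapine peak outside the counted classes. The olanzapine peaks had fold enrichments of 6.68 over 255 bp and 6.58 over 587 bp. They were among the strongest of the list, above the 6.14 of Kdm1a.

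Among other H3K4 methyltransferases and related SET proteins, 4 of 8 genes had a counted peak with olanzapine and 2 of 8 with clozapine. Over all genes the shares were 23% and 14.6%. Those with counted peaks in both were Kmt2e, a KMT2 relative with little activity of its own, and Ash1l, which is best known for methylating lysine 36. Kmt2e had a 5′ UTR olanzapine peak of 3485 bp at a fold enrichment of 3.97 and an exonic clozapine peak of 418 bp at 2.90. Ash1l had a 5′ UTR olanzapine peak of 663 bp at 3.26 and 2 exonic clozapine peaks, the stronger of 170 bp at 2.90. In both genes the counted olanzapine peak was thus in the 5′ UTR class and the counted clozapine peaks in the exonic class, beside further peaks outside these classes in either list.

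Among demethylases and their partner proteins, the counts were 5 of 20 genes for olanzapine and 3 of 20 for clozapine. These shares, 25% and 15%, lie near those of all genes, 23% and 14.6%. Glyr1, a nucleosome-binding partner of KDM1B, had counted peaks in both. Those of highest −log10 p were 1519 bp long at a fold enrichment of 3.79 and 170 bp at 3.16. Hmg20b, a subunit of the CoREST complex of KDM1A, had a 198 bp exonic olanzapine peak at 6.10. Hdac2, the deacetylase of that complex, had the highest −log10 p of the list in the clozapine library, 7.84, over 229 bp at 4.14, and Zmym3, another partner, had 170 bp at 3.58. Readers of methylated H3K4 were counted at 7 of 19 genes for olanzapine and 2 of 19 for clozapine. These shares were 36.8% and 10.5%, against the same 23% and 14.6%. Ing4, whose PHD finger binds the trimethyl state, had the strongest olanzapine peak of the list (279 bp at 7.43, −log10 p 11.7) and a clozapine peak of 1238 bp at 2.88. Morc3 had a 5′ UTR olanzapine peak of 409 bp at 6.15, and the remodeller Chd1 an exonic clozapine peak of 170 bp at 3.01.

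**Figure D4:**
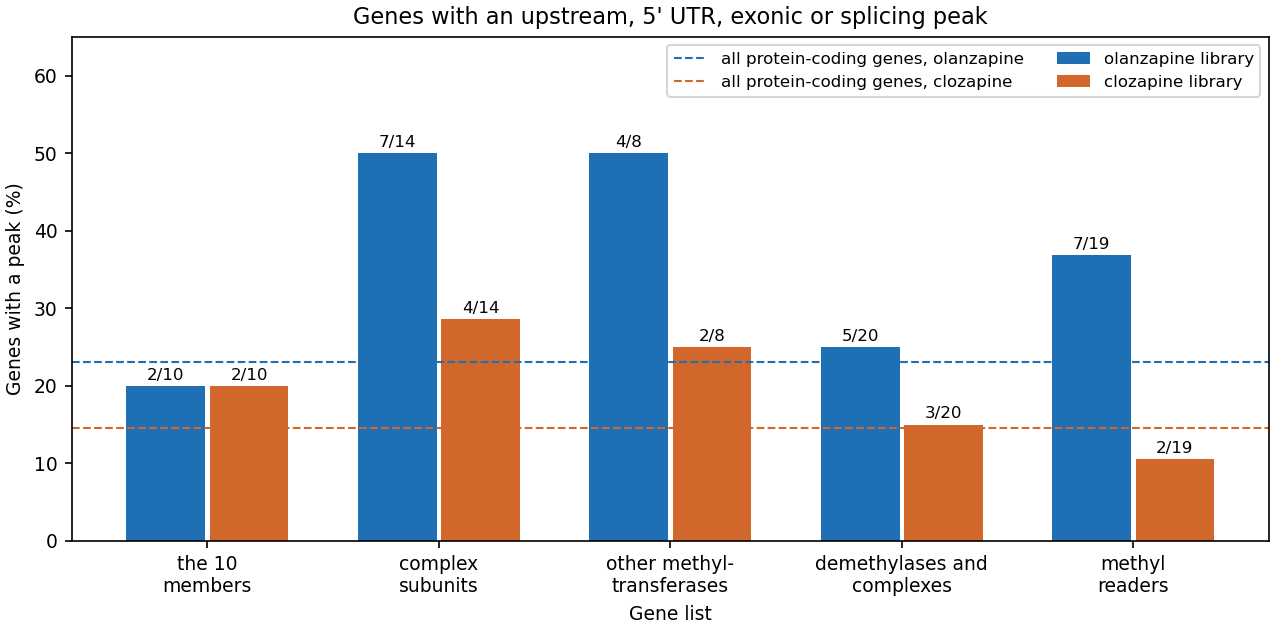
Bars give the share of genes, in percent, with a peak in the upstream, 5′ UTR, exonic or splicing class in each library for the 10 genes of the set and 4 groups of related genes, with the counts above each bar and dashed lines at the share among all protein-coding genes. The set stands at 2 of 10 in both libraries, next to the lines at 23% and 14.6%, and the complex subunits at 7 of 14 and 4 of 14.

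The deposited Gene Ontology tables counted Kdm1a and no other gene of the set. It was listed in 492 of 9672 olanzapine terms and in 492 of 10045 clozapine terms. Kdm5a, with exonic peaks in both libraries, was listed in none. The term histone H3-K4 methylation held 12 input genes of 31 background genes in either table, of which 5 were shared, namely Kdm1a, Rbbp5, the transcriptional regulator Bcor and Ctr9 and Rtf1 of the PAF1 elongation complex. The term histone demethylase activity held 4 and 3 input genes of 11, and Kdm1a, Kdm4a and Kdm4c were in both. The MLL1/2 complex term held 4 and 12 input genes of 20 without any of the KMT2 genes themselves.

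The tissue was checked against cell markers. Of 12 hepatocyte markers, 9 had a peak of the counted classes with olanzapine and 10 with clozapine (against 23% and 14.6% of all genes), Alb, Apob and Ttr among them in both, while Hnf4a had none. In the same classes, markers of liver endothelium had a peak in 0 of 5 and 4 of 5 genes, those of cholangiocytes in 0 of 4 and 2 of 4, of stellate cells in 0 of 4 and 1 of 4, of erythroid cells and neutrophils in 0 of 4 and 3 of 4, and of Kupffer cells and leukocytes in 0 of 5 in both. Peaks at markers of other cells, Kupffer cells and leukocytes excepted, were thus found in the library in which Kdm5a and the spaces of Kmt2a, Kmt2c and Kmt2d held many peaks, and their part in that result was not tested. By the read table of the study, the clozapine library also had by far the fewest reads assigned to the genome. Its peak list was nevertheless the longer, and the part of the read number in the result was not tested either.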

How the data were processed

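H3K4me2 ChIP-seq of liver from female rats was analysed in 1 olanzapine and 1 clozapine library, and the vehicle library was not analysed here. The authors aligned clean reads with BWA to Rnor_6.0 and used reads that mapped uniquely and without a mismatch. The peak caller, its control, its threshold and the annotation version are not given in the sources used here. The authors' peak lists hold a fold enrichment, a ratio to a background that is not named, and −log10 p-values and q-values for each peak of 1 library. They give no number of reads, and the depth of a peak is therefore unknown. The deposited Gene Ontology tables give the count of input and background genes per term. Their p-values, the pathway tables and the sheets of selected peaks were not used.

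Peaks were assigned to genes by the gene field of the lists, with 9 olanzapine and 22 clozapine entries that a spreadsheet had turned into dates left out. Symbols, synonyms, transcript kinds and gene order came from a RefSeq names table of assembly GRCr8, and its 18539 protein-coding genes with a curated transcript were the background for shares. Every peak of the 10 genes was described. Of the 61 related genes, those with a peak of the counted classes in both libraries and the 5 per library with the highest −log10 p were named, and a gene of the set with counted peaks in both libraries was set beside the 3 genes with the same peak numbers and the closest fold enrichments, which existed for Kdm1a and not for Kdm5a. Overlap was counted from 1 bp. Alternatives were other classes, longer peaks, higher fold enrichment or −log10 q, equal list lengths and other overlap limits. The genes and lists were chosen with earlier results of these data known, and the reading of the spaces between neighbouring genes and of peaks naming Mir3569 was added after seeing the data. The counting and overlap steps were tested on simulated data. Python 3.11.15, numpy 2.4.6, pandas 2.3.3 and matplotlib 3.10.9 were used.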

Additional observations from a re-analysis of the deposited data

How the results depend on the processing

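No paired analysis was possible because each drug has 1 library, and no replicate could be left out. Of the 10 enzyme genes, the 2 with a peak in the olanzapine library became 0 when the upstream and 5′ UTR classes alone were counted, 1 at a fold enrichment of at least 5 and 0 at a −log10 q of at least 5. The olanzapine peak over the implied start of Kdm5a is classed as exonic and so was not counted under the first limit. In the clozapine library the 2 genes became 0, 1 and 1 under the same limits, and 1 when the clozapine list was shortened by −log10 p to the length of the olanzapine list. With peaks between a gene's neighbours counted to the gene, an alternative chosen after seeing the data, the count was 7 for olanzapine and 7 for clozapine. This step was applied only to genes that neither list named, so Kdm5b with its intergenic peaks was not counted. The share of all genes under this wider rule was not computed, so these counts have no background. The 2 olanzapine peaks naming a gene of the set fell to 0 at a −log10 q of at least 5, and the 22 clozapine peaks to 6, or to 10 when longer than 200 bp. Of the 61 related genes, the 23 of the olanzapine library became 11 when the upstream and 5′ UTR classes alone were counted, 6 at the fold limit and 4 at the q limit. The 11 of the clozapine library became 0, 0 and 0 under these limits, 7 with peaks longer than 200 bp, 1 at equal list length, 41 with all classes and 22 with all but intergenic ones. The order of the libraries in this list thus turned when all classes were counted, with 29 related genes in the olanzapine library. Over all genes it turned too, from 23% (olanzapine) and 14.6% (clozapine) to 36.2% and 52.9%. The olanzapine shares of all genes at the class, fold and q limits were 7.31%, 4.84% and 1.59%. The clozapine shares were 0.901%, 1.76% and 2.02%, then 8.87% for longer peaks, 3.65% at equal list length and 28.5% without intergenic peaks. The overlap of the 2 olanzapine peaks with clozapine peaks was 0 under both other overlap limits, which were 50% of the shorter peak and a distance of 1000 bp. A background of genes with long proteins and the comparison of protein sequences were not run, since no protein sequences were used here. Equal list length gives no other olanzapine value, as that list is the shorter. The depth behind single peaks is unknown, which limits all of these counts.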
